A study of Homo sapiens with 6 samples.

Results

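The kinetochore and centromere genes described here are NDC80, NUF2, SPC25, SKA1, CENPA, CENPF and NEK2, taken by symbol from the authors' deposited table of changed genes. All 7 symbols were found, each in a single row, among 1305 genes in all. RNA was sequenced from NCI-H292, a long-established line of human lung cancer cells. Cells had been exposed for 48 hours to 50 nM mitoxantrone, an anticancer drug whose target is topoisomerase II and which leaves DNA broken (3 libraries), or to the solvent DMSO diluted 1 in 1000 (3 libraries). The series title places the comparison in work on immunogenic senescence of lung cancer cells. Nothing in the labels ties the libraries to separate cultures, so every p-value reflects how far these particular libraries scatter, which may be technical. Every gene in the table had been chosen by the authors as changed, 793 higher and 512 lower, so a call on any 1 of them is not independent evidence of its direction.

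The kinetochore is the protein assembly that joins each chromosome to spindle microtubules during cell division. It is built on the centromere, where nucleosomes carry CENP-A in place of ordinary histone H3, and its outer part is rebuilt for each mitosis. Many of its genes are transcribed in the G2 and M phases. In resting or arrested cells a repressor complex, DREAM, is known to hold such genes silent by binding a short promoter element called CHR (cell cycle genes homology region), often found with CCAAT boxes. The p53 target p21, the product of CDKN1A, is known to favour that repressor. E2F sites mark another class of cell cycle promoter.

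The promoter windows of the 7 genes are shown because the authors had listed all 7 as lower, and because the elements named above can be looked for in them. RefSeq sequences of GRCh38.p14 were used, from 250 bases before to 50 bases after the annotated start site. The searched CHR words were TTTGAA and TTCGAA, the CCAAT box was CCAAT, and the E2F words were TTTCCCGC, TTTCGCGC, TTTGGCGC and TTTGCCGC, on both strands. Below are the last 150 bases of each window, from base -100 to base 50 on the strand of the gene, with every match in capitals. TTCAAA and ATTGG are matches on the opposite strand. They lie at chr18:2571457-2571606 (plus strand, NDC80), chr1:163321854-163322003 (plus, NUF2), chr2:168890381-168890530 (minus, SPC25), chr18:50374946-50375095 (plus, SKA1), chr2:26785956-26786105 (plus, CENPA), chr1:214603095-214603244 (plus, CENPF) and chr1:211675572-211675721 (minus, NEK2).
NDC80: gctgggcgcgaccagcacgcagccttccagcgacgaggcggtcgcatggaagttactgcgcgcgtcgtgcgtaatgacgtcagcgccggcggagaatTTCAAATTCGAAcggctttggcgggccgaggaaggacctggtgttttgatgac
NUF2: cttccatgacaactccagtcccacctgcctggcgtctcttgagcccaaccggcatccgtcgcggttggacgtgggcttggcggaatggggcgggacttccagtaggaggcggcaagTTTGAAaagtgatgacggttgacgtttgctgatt
SPC25: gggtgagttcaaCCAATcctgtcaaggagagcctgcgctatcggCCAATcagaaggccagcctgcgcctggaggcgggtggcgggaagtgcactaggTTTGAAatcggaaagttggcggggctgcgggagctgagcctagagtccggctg
SKA1: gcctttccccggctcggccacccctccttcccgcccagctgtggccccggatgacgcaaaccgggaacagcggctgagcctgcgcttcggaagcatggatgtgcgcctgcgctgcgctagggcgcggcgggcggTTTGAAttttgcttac
CENPA: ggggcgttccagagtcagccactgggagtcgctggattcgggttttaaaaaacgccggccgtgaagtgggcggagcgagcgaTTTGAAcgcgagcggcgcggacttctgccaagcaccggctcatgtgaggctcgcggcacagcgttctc
CENPF: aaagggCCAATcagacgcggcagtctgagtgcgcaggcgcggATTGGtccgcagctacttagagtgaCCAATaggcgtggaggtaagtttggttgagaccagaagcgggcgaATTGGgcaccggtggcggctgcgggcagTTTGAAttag
NEK2: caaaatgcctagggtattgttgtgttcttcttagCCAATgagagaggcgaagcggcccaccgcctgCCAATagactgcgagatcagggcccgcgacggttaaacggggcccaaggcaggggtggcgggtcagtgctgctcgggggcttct

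A CHR word was found in 6 of the 7 windows and in 16.4% of 35116 RefSeq windows of the same length. In all 6 genes a CHR match lay within 50 bases of the start site, which held for 5.01% of all windows. This narrower distance was chosen after the positions were seen. In SPC25 and NDC80 the match spans the start itself (bases -3 to 3), and in NDC80 a second CHR word follows directly at bases 4 to 9. The matches begin at base -18 in CENPA, 17 in NUF2, 35 in SKA1 and 41 in CENPF. SPC25 has a further match that begins at base -247. CCAAT boxes were found in SPC25 (2), CENPA (2), CENPF (4) and NEK2 (2), and in 34.6% of all windows. A single E2F word was found, in CENPA, beginning at base -232, against 3.31% of all windows with one. The NEK2 window holds CCAAT boxes and no CHR word, which says only that these letters are not in this window. No match of one motif overlapped a match of another. These are matches of short words, and binding was not measured.

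**Figure D1:**
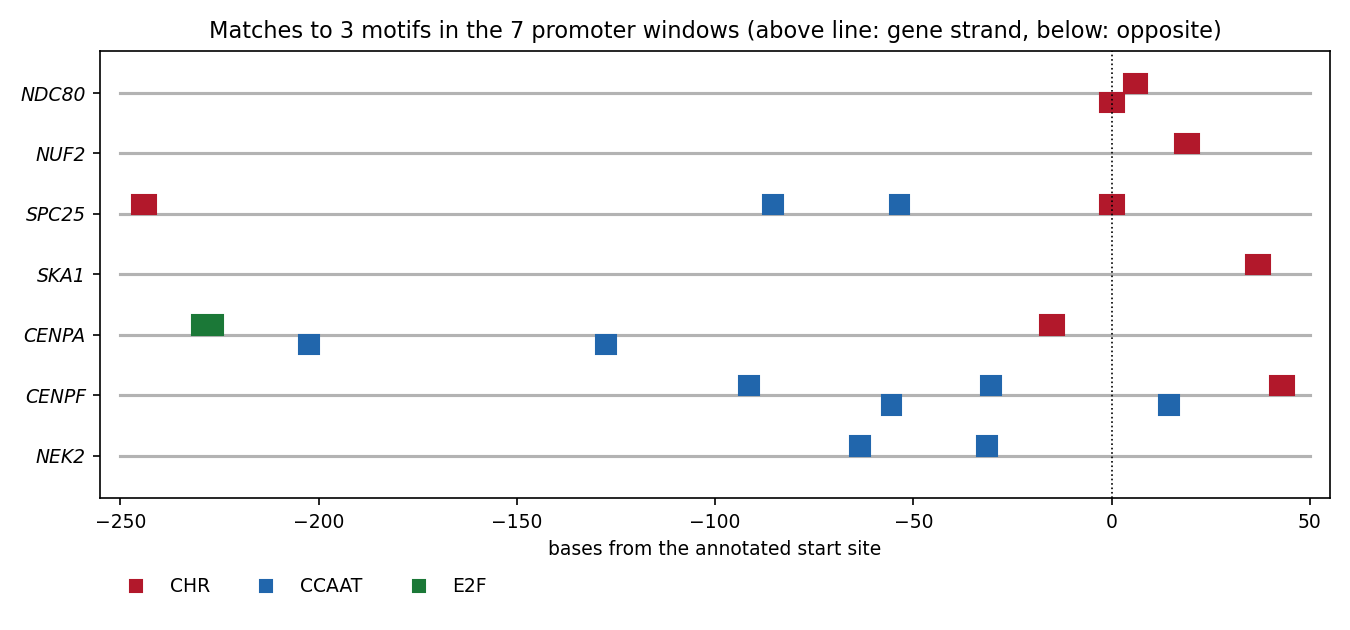
Matches to 3 motifs in the promoter windows of the 7 genes, by distance in bases from the annotated start site (dotted line). Red boxes are CHR words, blue boxes CCAAT boxes and the green box an E2F word, drawn above the line on the strand of the gene and below it on the opposite strand; the CHR words of 6 genes gather around the start site.

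The libraries held 14762586 to 15663306 assigned reads with mitoxantrone and 15789525 to 17817842 with DMSO. Normalized reads below are deposited counts divided by the authors' size factors. Level varied with gene length in DMSO library 2. Against the mean of the other DMSO libraries, its median log2 difference was 0.38 over 96 genes shorter than 2000 bases and -0.34 over 104 genes of 8000 bases or more. Mitoxantrone library 1 did the same to a lesser degree, at 0.20 and -0.23 against the other mitoxantrone libraries. DMSO library 1 departed the other way, at -0.27 and 0.19, against a mean that includes DMSO library 2. Fold changes and ratios that DMSO library 2 and mitoxantrone library 1 move most are given with and without them below. Of 6 epithelial markers KRT8 and KRT18 were in the table; the other epithelial markers and the 4 immune markers were not analysed here. KRT8 had 79946 to 98870 normalized reads with mitoxantrone and 28408 to 38087 with DMSO. COL1A1, the 1 of 5 fibroblast and endothelial markers in the table, had 119.9 to 158.9 normalized reads with mitoxantrone and 292.6 to 391.5 with DMSO, and its part in the results was not tested.

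All 7 genes were lower with mitoxantrone, at 37.3% (SPC25) to 47.7% (NEK2) of their mean level with DMSO. The mitoxantrone and DMSO libraries did not overlap for any of them. By edgeR's quasi-likelihood test, 7 of 7 passed an adjusted p of 0.05 as lower, with adjusted p-values from 4.1e-06 (CENPA) to 3.0e-04 (CENPF), where 35.3% of all genes in the table passed as lower, 92.0% in either direction, and 38.5% were lower without overlap. Since the authors had listed all 7 as lower, as they did 2.80% of the 18313 genes they had tested by the number solved from their p-values, this count repeats the selection. In RNA from whole cultures, fewer dividing cells and less RNA per dividing cell cannot be told apart. The table as a whole had 461 genes called lower and 740 called higher. Scaling on the table's own genes instead gave 512 lower and 366 higher calls (TMM) or 512 lower and 219 higher calls (DESeq2), with all 7 genes still called lower. These scalings move the median gene of the table by -0.69 (TMM) and -0.99 (DESeq2) on the log2 scale, and the falls grow by about as much, to -2.11 and -2.41 for SPC25 and to -1.76 and -2.06 for NEK2.

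All 7 falls were smaller than that of the median lower gene of this table. Their median log2 fold change was -1.24, against -1.51 for the 512 lower genes (quartiles -1.95 and -1.22) and 1.26 for all listed genes. Ordered from the largest fall, the 7 stood between place 290 (SPC25) and place 479 (NEK2) of the 512. They were well covered: the median gene of the 7 had a mean of 473.4 normalized reads, and the median gene of the table had 64.2. By the p-values in the authors' deposited table they ranked about 221 (CENPA) to 669 (CENPF) among all 18313 genes tested, within the first 3.65%. Every listed gene had passed the authors' own selection, so a high rank partly repeats it. Together the 7 genes took 198.5, 219.2 and 215.5 CPM (of assigned reads) in mitoxantrone libraries 1 to 3. In DMSO libraries 1 to 3 they took 602.6, 433.0 and 526.2. Most of that spread lay in CENPF, and the other 6 genes summed to 112.9, 109.7 and 106.1 with mitoxantrone and 274.8, 271.0 and 259.1 with DMSO.

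**Figure D2:**
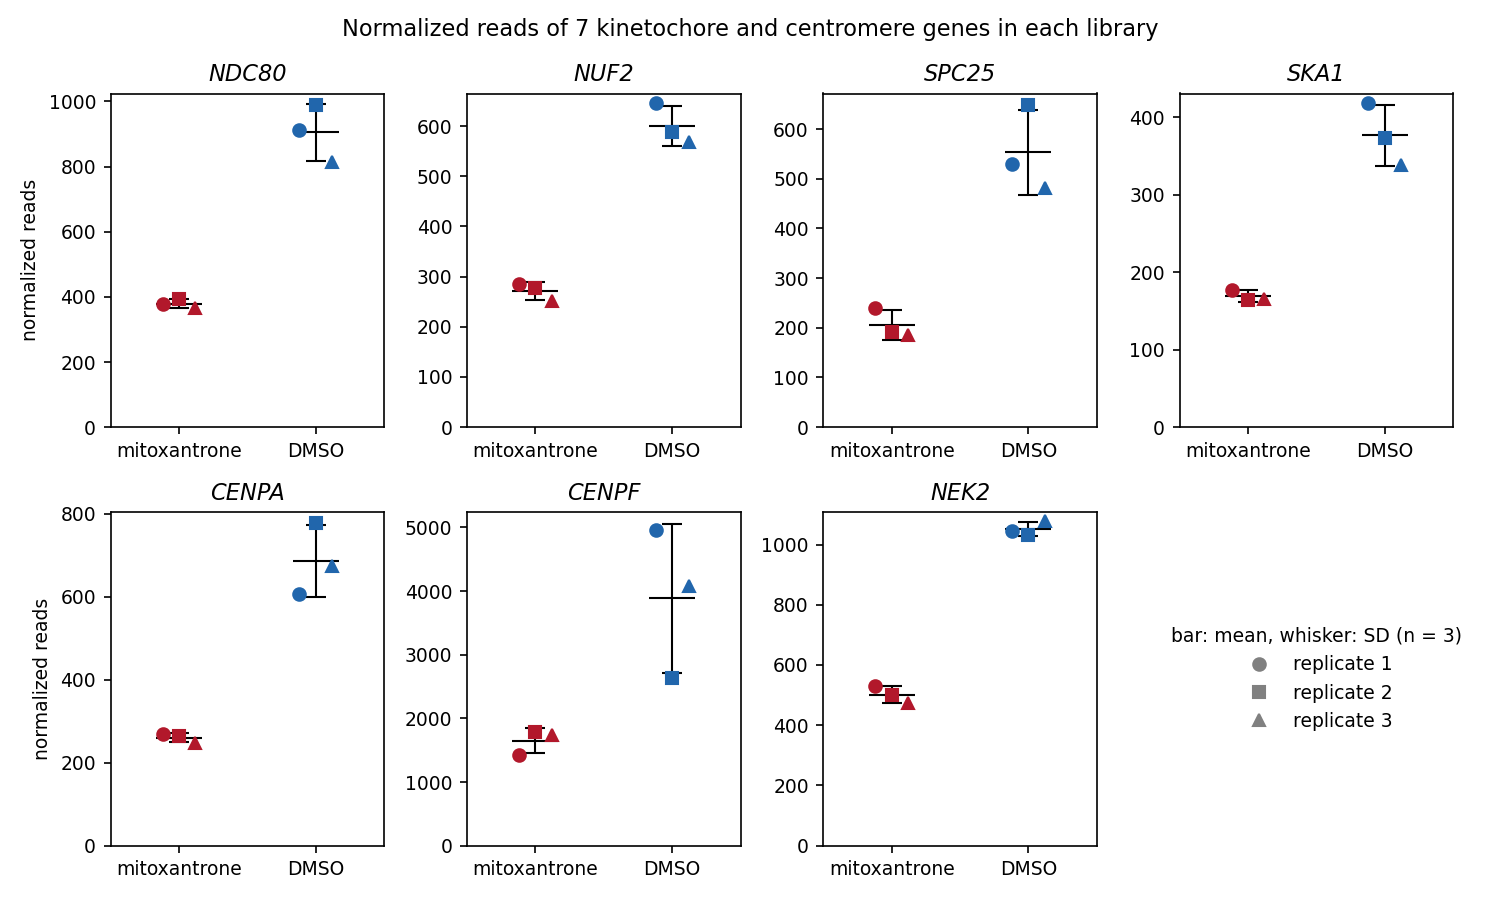
Normalized reads of each of the 7 genes in every library, with the mean (bar) and SD (whisker) of 3 libraries; each panel has its own axis starting at 0. The mitoxantrone libraries lie below the DMSO libraries in every panel, and CENPF in DMSO library 2 (2636 normalized reads) lies nearest to the mitoxantrone level.

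The NDC80 complex is the rod that grips the microtubule. NDC80 (also called HEC1) and NUF2 form its microtubule end, and SPC25 with SPC24 forms the end anchored in the kinetochore; SPC24 was not analysed here. NDC80 (ENSG00000080986, chromosome 18, 2571510 to 2616634, plus strand) had 378.8, 392.8 and 366.0 normalized reads with mitoxantrone, against 912.5, 989.2 and 813.9 with DMSO. The lowest DMSO library was thus above the highest mitoxantrone library by a wide margin. Its log2 fold change was -1.25 (SE 0.13), and edgeR's quasi-likelihood test gave an adjusted p of 7.1e-06. This and the other gene spans are those deposited, whose build is not given in the sources used here. Start and end together equal those of GENCODE 29 on GRCh38 for 0 of the 7. The spans are therefore not to be joined to the promoter coordinates.

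NUF2 (ENSG00000143228, chromosome 1, 163236366 to 163325554, plus strand) had 286.1, 277.2 and 251.2 normalized reads with mitoxantrone and 645.3, 588.3 and 568.0 with DMSO. Both groups were tight, with coefficients of variation of 6.68% and 6.67%. The log2 fold change was -1.15 (SE 0.13, adjusted p = 1.9e-05 in edgeR). SPC25 (ENSG00000152253, chromosome 2, 169690642 to 169769881, minus strand) had 240.9, 191.7 and 185.7 with mitoxantrone and 529.3, 648.1 and 482.4 with DMSO. It had the largest fall of the 7, with a log2 fold change of -1.42 (SE 0.16, adjusted p = 1.2e-05 in edgeR). Its highest values in each group, mitoxantrone library 1 and DMSO library 2, were in the 2 libraries in which short genes read high, and SPC25 is the shortest of the 7 at 1841 bases. Without DMSO library 2 its log2 fold change was -1.30, and without mitoxantrone library 1 it was -1.55. By GENCODE 29, NUF2 overlaps RGS5 and SPC25 overlaps NOSTRIN and G6PC2, all on the opposite strand. NDC80 and CENPF overlap pseudogenes on the opposite strand, and NEK2 overlaps the pseudogene FDPSP8 on the same strand. Without a stated strand, reads in bases shared with these genes cannot be told apart.

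Whether the subunits kept their proportions was examined with ratios of FPKM (fragments scaled by gene length and library depth) within each library, which do not depend on size factors. NUF2 over NDC80 was 0.810, 0.755 and 0.734 with mitoxantrone and 0.757, 0.637 and 0.747 with DMSO. The groups overlap, and the difference in mean log2 ratio was 0.10 (two-sided exact permutation test, p = 0.5, adjusted p = 0.5). Without DMSO library 2 it was 0.03. SPC25 over NDC80 was 1.24, 0.954 and 0.992 with mitoxantrone and 1.13, 1.28 and 1.16 with DMSO, again with overlap. The difference in mean log2 ratio was -0.17 (exact permutation p = 0.3, adjusted p = 0.45). It was -0.29 without mitoxantrone library 1 and -0.10 without mitoxantrone library 2. NUF2 over SPC25 was 0.651, 0.792 and 0.740 with mitoxantrone and 0.668, 0.497 and 0.645 with DMSO, a difference in mean log2 ratio of 0.28 (exact permutation p = 0.2, adjusted p = 0.45). With 3 libraries against 3, the exact permutation test cannot go below 0.1, so it could not have called a shift of any size. DMSO library 2 gave the lowest NUF2 over SPC25 ratio, and without it the difference was 0.14.

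SKA1 encodes a subunit of the SKA complex, which joins the NDC80 complex on microtubules and steadies the attachment. SKA1 (ENSG00000154839, chromosome 18, 47901365 to 47920543, plus strand) had 177.5, 164.6 and 165.3 normalized reads with mitoxantrone and 417.6, 373.0 and 338.4 with DMSO. The mitoxantrone libraries were nearly level, and the log2 fold change was -1.15 (SE 0.15, adjusted p = 3.7e-05 in edgeR). SKA1 was the least abundant of the 7 genes.

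CENPA encodes the histone H3 variant that marks the centromere. CENPA (ENSG00000115163, chromosome 2, 26987157 to 27023935, plus strand) had 269.1, 264.7 and 247.9 normalized reads with mitoxantrone and 606.6, 777.9 and 674.3 with DMSO. Its DMSO values were spread more widely than its mitoxantrone values, and DMSO library 2 was the highest. The log2 fold change of -1.40 (SE 0.14) had the smallest adjusted p of the 7, at 4.1e-06 in edgeR. Without DMSO library 2 it was -1.30. CENPA overlaps SLC35F6 on the same strand in GENCODE 29, and reads in shared bases are uncertain.

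CENPF encodes a very large coiled-coil protein that gathers on the outer kinetochore in G2 and early mitosis. CENPF (ENSG00000117724, chromosome 1, 214776538 to 214837931, plus strand) was the longest of the 7, at 11663 bases, and had the most reads. It had 1430, 1786 and 1741 normalized reads with mitoxantrone and 4956, 2636 and 4077 with DMSO. The DMSO libraries were far apart, with a coefficient of variation of 30.1%, yet the lowest of them, library 2, was above every mitoxantrone library. The log2 fold change was -1.24 (SE 0.19, adjusted p = 3.0e-04 in edgeR). Without DMSO library 2 it was -1.45 (SE 0.14), and without DMSO library 1, the high one, -1.02 (SE 0.18). It passed each time, with adjusted p-values of 1.9e-09 and 0.0029 in edgeR. CENPE, a kinetochore kinesin of 9444 bases, showed the same order, with 1486, 829 and 1130 normalized reads in DMSO libraries 1 to 3.

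NEK2 encodes a kinase that drives the separation of the centrosomes and also phosphorylates NDC80. NEK2 (ENSG00000117650, chromosome 1, 211836114 to 211848960, minus strand) had 531.5, 500.2 and 473.3 normalized reads with mitoxantrone and 1044, 1032 and 1078 with DMSO. Its DMSO libraries were the closest of the 7 genes, with a coefficient of variation of 2.24%. It had the smallest fall, with a log2 fold change of -1.07 (SE 0.13, adjusted p = 2.1e-05 in edgeR). NEK2 was the 1 gene of the 7 with no CHR word in its window, and no test can be made on a single gene. Among the further genes described below, those with a CHR word had log2 fold changes of -1.03 (CDC20) and -1.09 (OIP5). CENPE, DSN1, CENPU and AURKB, without one, lay between -1.07 and -1.05. Whether the word goes with the size of the fall was not tested.

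On the FPKM scale, which allows levels of different genes to be compared, the order with mitoxantrone ran from NEK2 at 10.2 ± 0.351 down to SKA1 at 3.52 ± 0.0950 (SD, n = 3 each). Between them stood CENPF at 8.70 ± 1.17, CENPA at 8.05 ± 0.178, SPC25 at 6.85 ± 0.855, NDC80 at 6.46 ± 0.204 and NUF2 at 4.95 ± 0.224 (SD, n = 3 each). The libraries of CENPF overlapped those of CENPA and of SPC25, and those of SPC25 overlapped those of NDC80. With DMSO the top was shared by NEK2 (22.4 ± 1.24), CENPA (22.2 ± 1.94), CENPF (21.6 ± 7.19) and SPC25 (19.3 ± 2.25), in which each neighbouring pair overlapped (SD, n = 3 each). NDC80 (16.2 ± 1.17), NUF2 (11.5 ± 1.04) and SKA1 (8.21 ± 1.00) followed (SD, n = 3 each). The place of CENPF with DMSO rests on library 2: its FPKM was 28.1, 13.9 and 22.9 in DMSO libraries 1 to 3, and in library 2 it lay below every DMSO library of NDC80 (14.8 to 16.9). NUF2 and SKA1 stood apart from their neighbours in both conditions, without overlap.

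The wider kinetochore and centromere lists held 65 genes, of which 14 were in the table. All 14 passed as lower (edgeR, adjusted p under 0.05) and 0 as higher, beside the 35.3% of the table that passed as lower; the median log2 fold change was -1.10. These 14 include the 7 genes, and the authors had listed all of them as changed, so the count repeats that selection. The listed genes outside the table were not analysed here. Beyond the 7, the table held DSN1, a subunit of the MIS12 complex that seats the NDC80 complex, with 362.6 to 408.2 normalized reads with mitoxantrone and 783.9 to 851.1 with DMSO (log2 fold change -1.05, SE 0.13). CENPU, of the inner network that rests on CENP-A nucleosomes, had a log2 fold change of -1.07 (SE 0.14). MIS18A and OIP5 encode subunits of the MIS18 complex, which licenses new CENP-A at the centromere, and had log2 fold changes of -1.11 (SE 0.15) and -1.09 (SE 0.16). With CENPA itself, the table thus held the CENP-A gene and 2 of the 4 listed genes of its deposition, all lower.

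CENPE had a log2 fold change of -1.06 (SE 0.18). CDC20, the activator of the anaphase-promoting complex on which the spindle checkpoint acts, was the 1 of 7 checkpoint genes in the table, at 1853 to 1968 normalized reads with mitoxantrone and 3626 to 4235 with DMSO (log2 fold change -1.03, SE 0.13). AURKB, the kinase that corrects faulty attachments, was the 1 of 6 in the chromosomal passenger and shugoshin list, with a log2 fold change of -1.05 (SE 0.15). These 7 further genes lay between -1.11 and -1.03, close to the authors' limit of 1.0, and each passed in edgeR with adjusted p-values from 2.9e-05 (DSN1) to 5.4e-04 (CENPE). Without DMSO library 2 the log2 fold change was -0.89 for AURKB, -0.96 for OIP5, -0.96 for CDC20 and -1.25 for CENPE, and without DMSO library 1 it was -0.83 for CENPE. Of the 5 centrosome linker genes 0 were in the table. Of these 7, CDC20 and OIP5 had a CHR word in their promoter windows, CENPE, DSN1, CENPU and AURKB had none, and MIS18A had no window in the sequence table used.

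**Figure D3:**
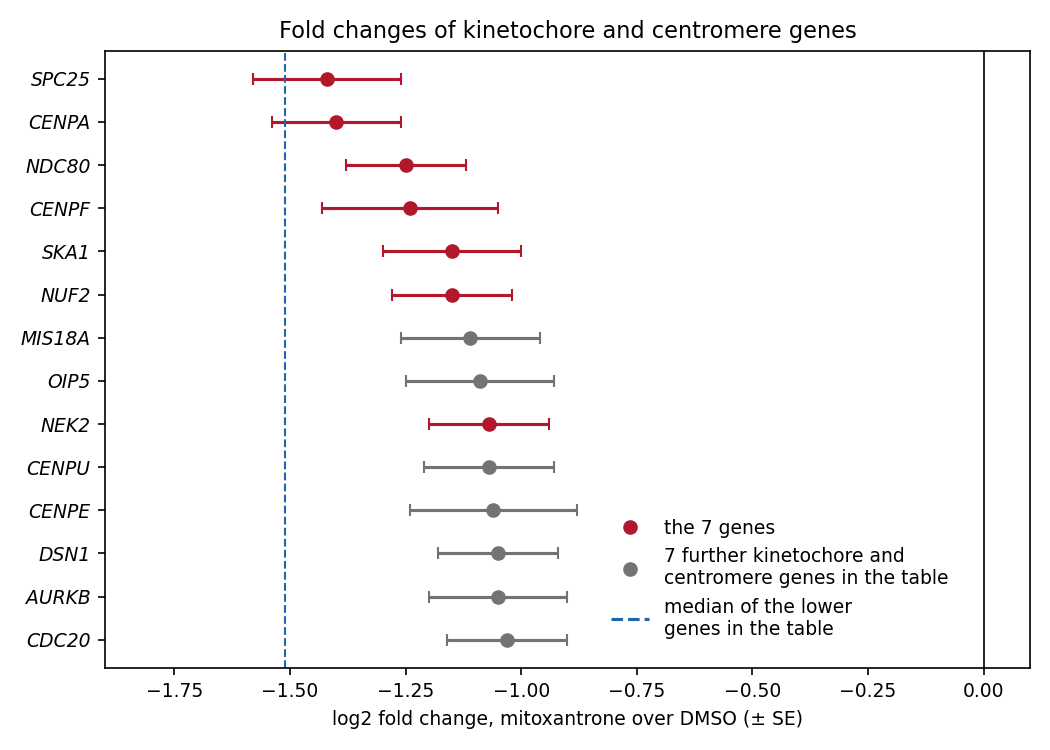
Log2 fold change, mitoxantrone over DMSO, with its standard error, for the 14 kinetochore and centromere genes in the table; the dashed line is the median of the 512 lower genes (-1.51). The values run from -1.42 (SPC25) to -1.03 (CDC20), all to the right of that line.

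A search of the deposited gene annotation for cell component terms naming a kinetochore or centromere, made after the table had been seen, found 17 genes, and 17 passed as lower (edgeR, adjusted p under 0.05), where 35.3% of the table passed as lower and 92.0% in either direction. The search covered only genes already listed as changed. Beside those above, they were RAD21 and STAG1, which belong to the cohesin ring that holds sister chromatids together, the chromosome-binding kinesin KIF22, CENPV, SUV39H1, which methylates histone H3 in heterochromatin, and MKI67. The log2 fold changes of these 6 ran from -1.33 (MKI67, SE 0.26) to -1.03 (RAD21, SE 0.13). MKI67, at 12807 bases, had 2028, 3157 and 3423 normalized reads with mitoxantrone and 9833, 3955 and 7853 with DMSO, with its lowest values in the same libraries as CENPF.

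Regulators of CHR and E2F genes were in the table for 4 of 10 listed. CDKN1A was higher, at 18214 to 19137 normalized reads with mitoxantrone and 2850 to 3503 with DMSO (log2 fold change 2.55, SE 0.15). MYBL2, FOXM1 and E2F1, activators of cell cycle genes, were lower, with log2 fold changes of -1.52 (SE 0.13), -1.16 (SE 0.14) and -1.39 (SE 0.17). Of 5 other proliferation genes TOP2A, CCNA2, CCNB2 and MKI67 were in the table and passed as lower, with a median log2 fold change of -1.16, again among listed genes of which 35.3% passed as lower and 92.0% either way. Whether the changes of these genes bear on the kinetochore genes was not tested.

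Within a group, the 14 genes varied with their length most in DMSO library 2. In DMSO library 2, against the mean of the other DMSO libraries, CENPF was lower by -0.78 and CENPE by -0.66 on the log2 scale. In the same library SPC25 stood at 0.36, CENPA at 0.28 and AURKB at 0.44, and SKA1, NEK2 and NUF2 (2950 to 3362 bases) lay between -0.04 and -0.02. NDC80, at 3600 bases, stood at 0.20. In DMSO library 1, measured in the same way, CENPF stood at 0.56 and CENPE at 0.60. The pattern was weaker with mitoxantrone. Against the other mitoxantrone libraries, CENPE stood at -0.05, 0.09 and -0.05 in libraries 1 to 3, and CENPF at -0.30, 0.17 and 0.11. Genes of the table that rose with treatment showed the same split by length as those that fell (medians in DMSO library 2 of 0.40 and -0.37 for the shortest and longest classes of higher genes, and of 0.37 and -0.33 for those of lower genes). All 7 genes were still called lower with DMSO library 2 and mitoxantrone library 1 both left out, and CENPF then had a log2 fold change of -1.36 (SE 0.13).

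**Figure D4:**
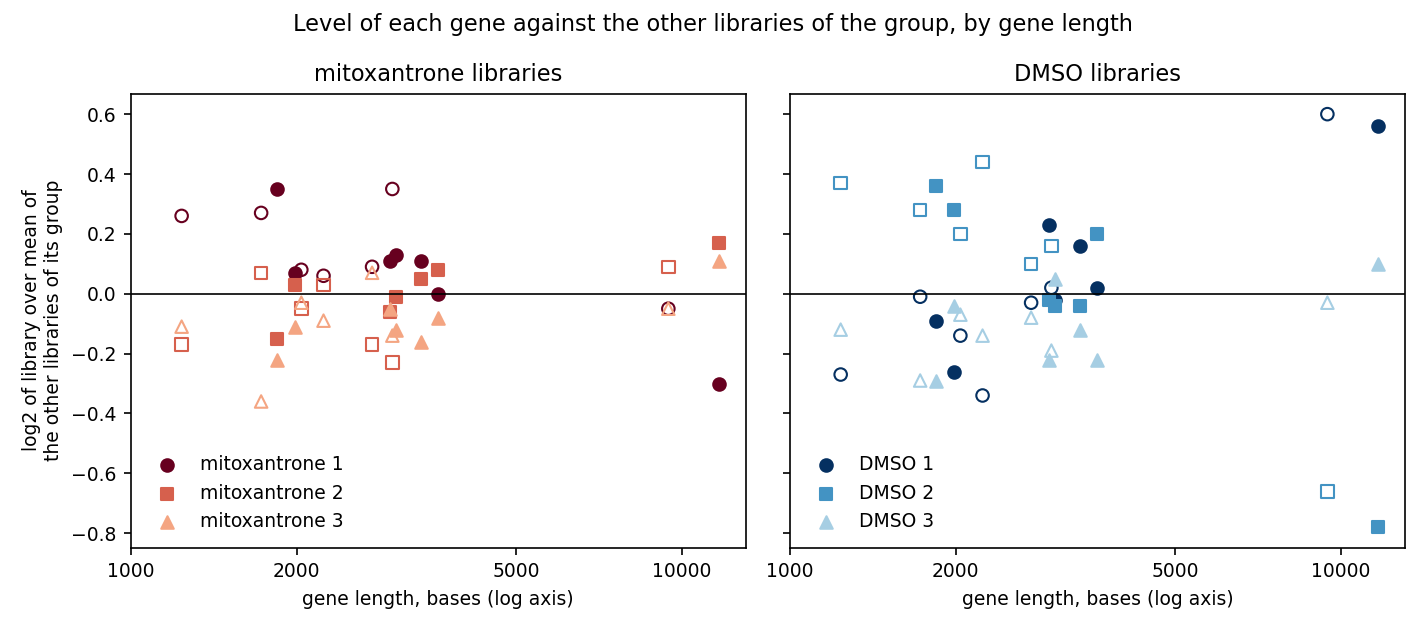
Level of the 14 genes in each library as the log2 of its normalized reads over the mean of the other libraries of its group, against gene length in bases (log axis); filled symbols are the 7 genes, open symbols the 7 further ones. In DMSO library 2 the genes near 2000 bases lie above 0 and CENPE and CENPF lie at -0.66 and -0.78.

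The profile most like the mean of the 7 genes over the 6 libraries was that of GPSM2, which encodes a spindle orientation protein, among 700 genes with a mean of at least 50 normalized reads. Likeness was the root mean square difference of centred log2 normalized reads, 0.028 for GPSM2, where the 7 themselves ranged from 0.055 (NUF2) to 0.288 (CENPF) and the genes compared had a median of 1.21. PARPBP (0.052), DEPDC1B (0.053), ANP32E (0.053) and the locus listed as RP11-424C20.2 (0.054) came next. GPSM2 had 364.1, 354.3 and 355.3 normalized reads with mitoxantrone and 890.2, 827.4 and 820.8 with DMSO. The measure is a description over 6 libraries that share the treatment contrast. More listed genes were higher (793) than lower (512), and no median over the lower genes alone is given. The 7 genes also make up the mean against which they were measured.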

How the data were processed

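The 7 genes, the lists and the tests were chosen with earlier results of these data known. Tools named in the submitters' processing notes, with no role or order, are DESeq2, Cufflinks (version 2.2.1), HTSeq (version 0.6.1), HISAT2 (version 2.0.1) and cutadapt (version 1.9.1). The build is not given in the sources used here, nor is strandedness. Per the file headers, the authors deposited raw read counts and FPKM values per library, and, per gene, a mean normalized count (a signal value), a log2 fold change with its standard error, a test score and p-values.

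Size factors were solved from the deposited counts and mean normalized counts (largest relative error 5.0e-10), and library totals from FPKM. The ratio of p-value to adjusted p-value gave whole ranks within 0.02 for 86.9% of 360 genes if 18313 genes had been tested. Counts were fitted for all 1305 genes with edgeR 4.0.16 (quasi-likelihood, R 4.3.3, those size factors, treatment alone, no filter), and p-values were Benjamini-Hochberg adjusted as if over 18313 tests, the unlisted genes taken to rank below the listed ones. Dispersions were estimated from the listed genes only. The fit was tested on simulated data. Alternatives used limma 3.58.1 and DESeq2 1.42.0. Libraries held 14762586 to 17817842 assigned reads each, and precision rests on read depth and on the spread between 3 libraries. Ratios were tested by exact permutation (scipy 1.17.1), adjusted over 3 ratios. Replicates were not duplicates (chi-square per gene 2.62 to 24.51). Promoter windows were matched by symbol. Text names the 7 genes, list genes in the table and the 5 nearest profiles; genes found by annotation search were added after their values were seen. Columns of per-library values left unused numbered 0.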

Additional observations from a re-analysis of the deposited data

How the results depend on the processing

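All 7 genes stayed lower and past an adjusted p of 0.05, and 14 of the 14 listed kinetochore and centromere genes likewise, under each alternative run: scaling on the table's genes by TMM or by DESeq2, library totals, the DESeq2 test, filterByExpr, limma on log2(FPKM + 1) or log2(FPKM + 0.1), adjustment over the table only, the replicate block and each library left out. Leaving out DMSO library 2 and mitoxantrone library 1 together, chosen after seeing the data, also gave 7 and 14. With 1 library left out, log2 fold changes ranged from -1.55 to -1.30 for SPC25 and from -1.45 to -1.02 for CENPF. Scaling on the table's genes shifts the median gene by -0.69 (TMM) or -0.99 (DESeq2), and CENPA was then at -2.08 and -2.39. The 3 subunit ratios kept their sign under each alternative, and with a library left out NUF2 over NDC80 ranged from 0.03 to 0.15, SPC25 over NDC80 from -0.29 to -0.10 and NUF2 over SPC25 from 0.14 to 0.36. Normalized reads per length and pairing by replicate number could not have changed the sign. Size factors cancel within a library, and paired differences have the same mean as unpaired ones.

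Replicate numbers are shared between the groups, but same-numbered libraries did not all deviate together (correlations -0.44, -0.26 and 0.23). Pairs with different numbers ran from -0.48 to 0.59. The highest of them was mitoxantrone library 1 with DMSO library 2. A replicate block gave 463 lower calls in the table, against 461 without it. The mean paired ratio differences were 0.10, -0.17 and 0.28, which equal the unpaired ones by arithmetic. The smallest count of these genes was 154 reads, for SKA1, and how far depth limited their precision was not tested.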
